A study of Mus musculus with 2 samples.

Results

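Matrix proteases and their inhibitors were followed across the cell classes of the old mouse lung through 9 genes: the metalloproteinases Mmp2, Mmp3, Mmp12 and Mmp14, the tissue inhibitors of metalloproteinases Timp1, Timp2 and Timp3, and Plau and Plaur, which encode urokinase and its receptor. They were taken by name from the 15526 genes of the deposited expression matrix. The cells were mCherry-positive lung cells sorted by flow cytometry from p16-FDR mice on the C57BL/6 background, aged 20 to 22 months. These mice carry a reporter at p16, a cell cycle inhibitor used as a marker of senescence, in which a mammalian-optimised FLP recombinase is joined to a diphtheria toxin receptor fused to the fluorescent protein mCherry. Both samples belonged to that 1 group, and mCherry-negative cells, young mice and wild-type mice were not analysed here. The matrix held 1344 cells from library 1 (1145 cells) and library 2 (199 cells), and neither library could be tied to a sample, so the cells were pooled as 1 sample and no test across samples was possible.

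Matrix metalloproteinases are zinc enzymes that cut collagens, elastin, proteoglycans and other proteins of the extracellular matrix, and most are made as inactive precursors. Tissue inhibitors of metalloproteinases bind the active enzymes, and Timp2 also takes part, at the membrane-bound Mmp14, in the activation of the Mmp2 precursor. Urokinase, held at the cell surface by its receptor, turns plasminogen into plasmin, which cuts fibrin and can activate several metalloproteinase precursors. In the lung, Mmp12 is best known as the elastase of macrophages and Timp3 as an inhibitor bound to the matrix itself.

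Cells fell into 19 classes that were named from marker lists and from a clustering that left out the 9 genes, the wider protease lists and mCherry. The protease sources, a set laid down as macrophage-like, dendritic-like and fibroblast-like classes, held 421 cells, and the remaining classes held 923 cells. The sources were 103 interstitial-macrophage-like cells, 49 serous-cavity-macrophage-like cells, 20 alveolar-macrophage-like cells, 46 Mgl2 dendritic-like cells, 16 Flt3 dendritic-like cells, and 74 Apod, 61 Wif1, 26 Cd248 and 26 Npnt fibroblast-like cells, each named by a leading gene. Among the remaining cells were 603 endothelial-like cells (415 aerocyte-like, 145 Gja4 endothelial-like and 43 of the third endothelial-like class), 262 T, B and plasma cells, 20 contractile-mesenchymal-like cells, 15 monocyte-like cells and 23 unnamed cells led by airway genes. Median depth was 7591 UMIs (counted transcript molecules) per cell in the sources and 5125 in the remaining cells. Fibroblast markers were detected in at least 25% of cells for 9 or 10 of the 10 listed markers in all 4 fibroblast-like classes. The Mgl2 dendritic-like class was mixed: 6 of 12 listed dendritic markers were detected in at least 25% of its cells. Among the dendritic markers, Mgl2 was in 82.6% of its cells and Itgax in 65.2%. The class carried macrophage markers as well, such as C1qa in 73.9% of its cells. Of the 23 airway-led cells, 15 held markers of several lineages, and no doublets were removed. The club-cell gene Scgb1a1, a gauge of free RNA, reached 1.82 UMIs per 10000 in T, B and plasma cells, where 68.7% of cells held a UMI.

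**Figure D1:**
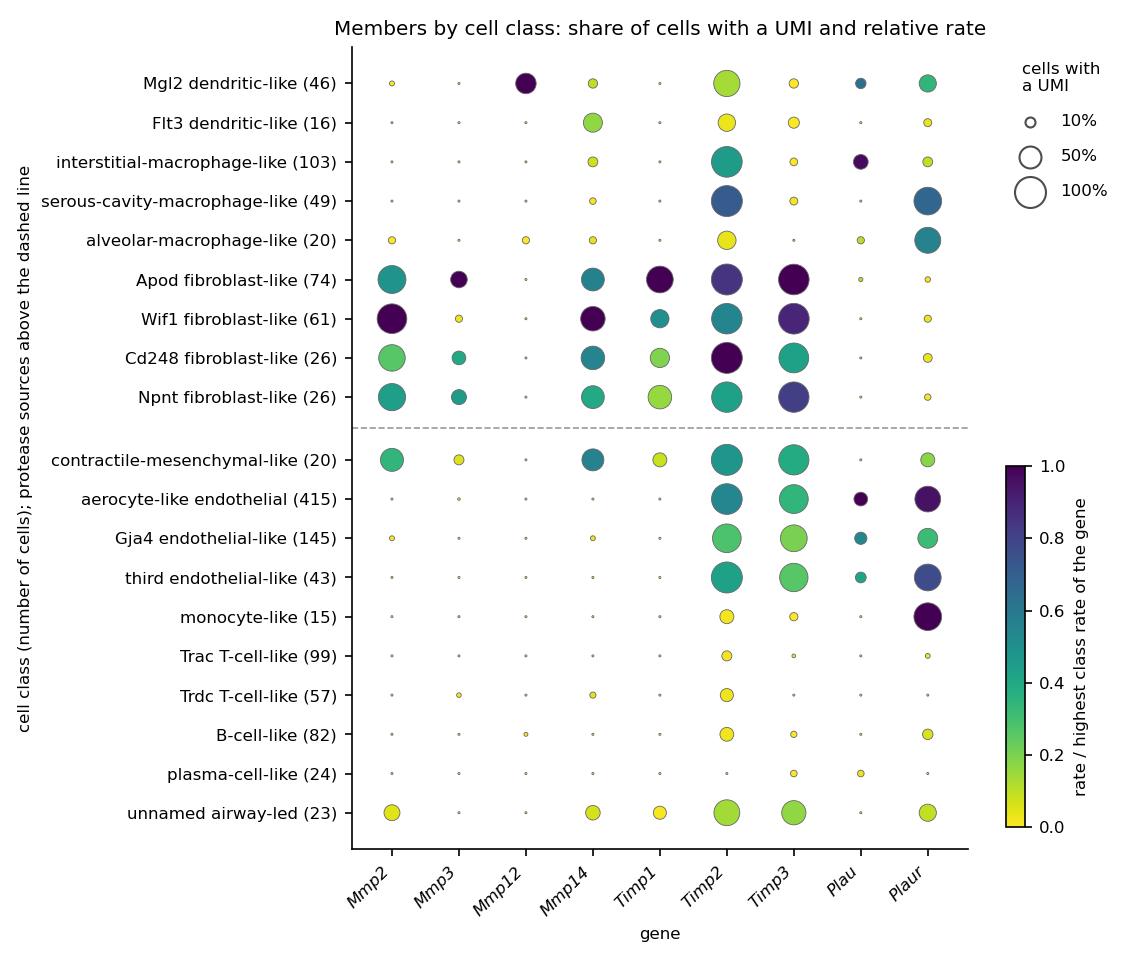
Dot map of the 9 genes (columns) over the 19 cell classes (rows, protease sources above the dashed line). Dot size is the percentage of cells with at least 1 UMI and colour is the rate per 10000 UMIs divided by the highest class rate of that gene; the fibroblast-like rows hold the dark dots of Mmp2, Mmp3, Mmp14, Timp1 and Timp3, the Mgl2 dendritic-like row that of Mmp12, and endothelial-like rows are dark for Plau and Plaur.

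Mmp2, or gelatinase A, which cleaves type IV collagen and denatured collagens, was a fibroblast transcript in these lungs, with 91.6% of its 758 UMIs in the fibroblast-like classes. Its rate, the UMIs of a gene per 10000 UMIs of the class, was 8.59 in Wif1 fibroblast-like cells (95% Poisson interval 7.70 to 9.55), 4.18 in Apod (3.65 to 4.77), 3.80 in Npnt (3.04 to 4.70) and 2.25 in Cd248 fibroblast-like cells (1.67 to 2.97). All intervals here cover counting error only, since the cells of a library come from the same preparation and UMIs of a gene vary between cells by more than counting. Wif1 fibroblast-like cells stood alone at the top, 2.05-fold above Apod fibroblast-like cells (interval 1.73 to 2.45), and 56 of the 61 held a UMI. The Apod, Npnt, contractile (2.98, interval 2.10 to 4.10) and Cd248 classes followed in that order, each overlapping its neighbour. No Mmp2 UMI was found in 415 aerocyte-like cells, which allows a rate of up to 0.0141, and none in interstitial-macrophage-like, serous-cavity-macrophage-like or T, B and plasma cells. In library 2 the 4 fibroblast-like cells held Mmp2 in 3.

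Mmp14, the membrane-anchored collagenase that activates the Mmp2 precursor, was led by the same Wif1 class, at a rate of 2.46 (2.00 to 3.01), against 1.39 in Apod (1.09 to 1.74), 1.35 in Cd248 and 0.973 in Npnt fibroblast-like cells (0.610 to 1.47). Fibroblast-like cells gave 76.3% of its 291 UMIs, a smaller portion than for Mmp2. The rest included contractile cells, whose rate of 1.37 (0.797 to 2.19) lay between those of the Apod and Cd248 classes. Dendritic-like and macrophage-like cells had lower rates. Flt3 dendritic-like cells had 0.407 (0.176 to 0.802, 6 of 16 cells). Mgl2 dendritic-like cells had 0.245 and interstitial-macrophage-like cells 0.180 (10 of 103 cells). Mmp14 was found in 0.763% of T, B and plasma cells, which were shallower, with a median of 4442.5 UMIs against 6816 in interstitial-macrophage-like cells. In Gja4 endothelial-like cells its rate was 0.0523, and no UMI fell in aerocyte-like cells. Mmp2 and Mmp14 were detected together in 90 of 187 fibroblast-like cells (48.1%), close to the 47.4% that the product of their separate shares gives. All 90 also held Timp2, but Timp2 was found in 184 of the 187 cells, and the product of the 3 shares gives 46.7%. The cells with both Mmp2 and Mmp14 were deeper, with a median of 7366.5 UMIs against 6045 in the other fibroblast-like cells.

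**Figure D2:**
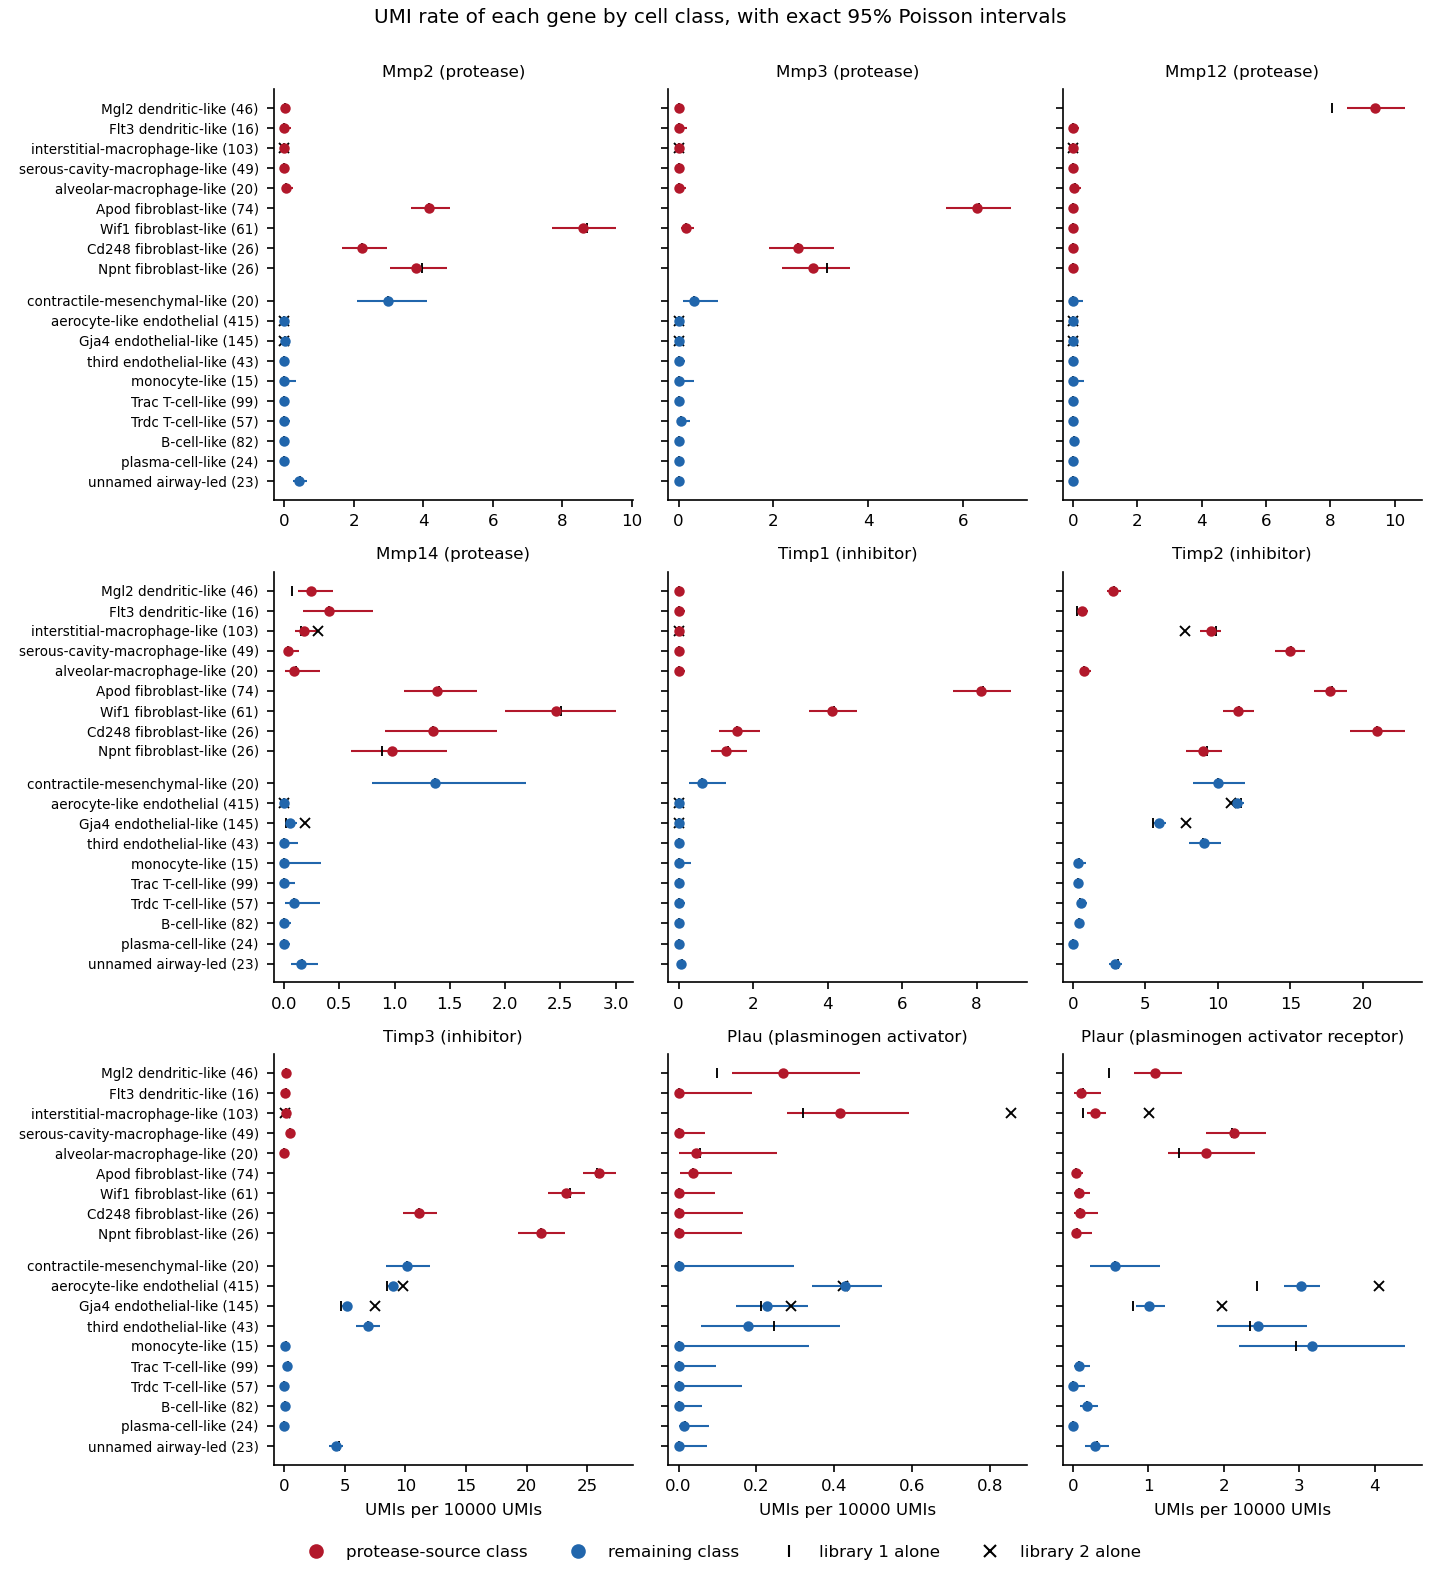
Rate of each gene (UMIs per 10000 UMIs of the class, separate axes per gene) in the cell classes, protease sources ahead of the remaining classes. Points are pooled rates with 95% Poisson intervals and small marks give each library where it had at least 10 cells of the class; Mmp2 peaks in Wif1, Mmp3 and Timp1 in Apod and Timp2 in Cd248 fibroblast-like cells.

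Mmp3, or stromelysin 1, which cuts proteoglycans and laminin and activates other metalloproteinase precursors, was ordered differently from Mmp2 among fibroblast-like cells. Apod fibroblast-like cells had a rate of 6.29 (5.63 to 7.0), followed by Npnt (2.83, interval 2.18 to 3.62) and Cd248 (2.52, 1.91 to 3.28), whereas Wif1 fibroblast-like cells had 0.152, a ratio of 0.024 to the Apod class. Detection was sparse even in the leading class, with a UMI in 21 of 74 Apod cells, 6 of 26 Npnt cells, 5 of 26 Cd248 cells and 3 of 61 Wif1 cells. Of 463 UMIs, 57.9% lay in 5 cells, and the highest held 70. Without its top cell the rate was 5.10 in the Apod class but 0.731 in the Npnt class and 0.466 in the Cd248 class, so the Npnt and Cd248 levels each rested on 1 cell. Every fibroblast-like cell with Mmp3 was in library 1, and library 2 had 4 fibroblast-like cells. No Mmp3 UMI was found in macrophage-like or dendritic-like cells.

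Mmp12, the macrophage metalloelastase that degrades elastin, was read almost only from the Mgl2 dendritic-like class, which held 421 of its 423 UMIs. The class rate was 9.39 (8.51 to 10.3), and 20 of its 46 cells held a UMI (43.5%, exact binomial interval 28.9 to 58.9). By library, the rate was 8.06 in the 42 cells of library 1 and 21.3 in the 4 cells of library 2, where 1 cell with 93 UMIs carried the level and the rate without that cell was 0.956. The 6 highest cells held 93, 71, 53, 41, 40 and 40 UMIs. None was found in interstitial-macrophage-like, serous-cavity-macrophage-like or Flt3 dendritic-like cells, so the Mgl2 class was at least 227-fold higher than interstitial-macrophage-like cells and at least 61.5-fold higher than Flt3 dendritic-like cells, with 3 counts over each class taken as the limit of a zero. The contrast with interstitial-macrophage-like cells depends on the clustering, since with 30 components the Mgl2 cells joined that class. Within the Mgl2 class, Itgax, which encodes CD11c, was found in 90% of the 20 cells with Mmp12 and 46.2% of the other 26, and Ccl17, a chemokine of dendritic cells, in 30% and 7.69%. Ccl22 (35% and 11.5%), Batf3 (70% and 61.5%) and Mgl2 (90% and 76.9%) were also more frequent in the cells with Mmp12. Cd209a (30% and 46.2%), H2-DMb2 (45% and 65.4%), Ccr7 (10% and 19.2%) and Flt3 (5% and 15.4%) were less frequent there. C1qa was found in 90% and 61.5%. The cells with Mmp12 had a median depth of 11744.5 UMIs, against 7854 in the other 26 cells, and its part in these shares was not tested. By rate, Batf3 (1.23 against 1.53) and C1qa (38.4 against 40.8) were lower in the cells with Mmp12, and Ccr7 was higher (1.09 against 0.306). Each of the other genes named in this comparison kept its direction.

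**Figure D3:**
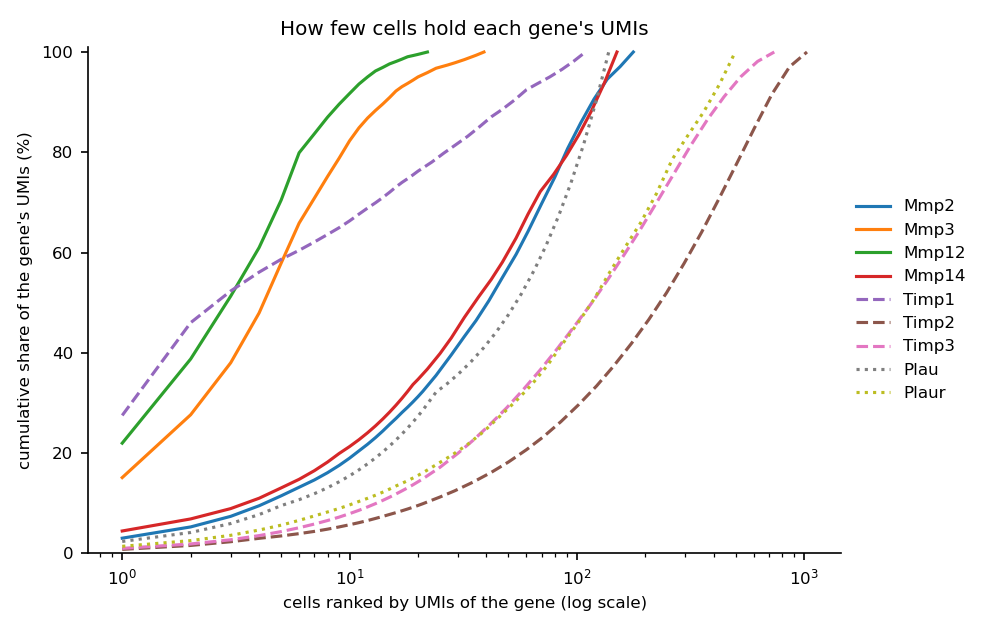
Cumulative percentage of each gene's UMIs (y axis) held by its highest cells, ranked from the cell with most UMIs (x axis, log scale). The curves of Mmp3, Mmp12 and Timp1 pass 57% within 5 cells, whereas the 5 highest cells held 3.48% of Timp2 and 4.35% of Timp3 UMIs.

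Mmp3 and Mmp12 lie in the same metalloproteinase cluster on chromosome 9, in the same orientation, yet their UMIs came from separate classes. In GRCm38, Mmp12 lies at chr9:7344381-7369499 and Mmp3 at chr9:7445822-7455975, both on the plus strand, with 76322 bases and 0 annotated protein-coding genes between them. The annotation of Mmp12 overlaps that of Mmp1b on the other strand, so its counts carry the same uncertainty over strand as those of Timp1 and Timp3. Upstream stretches of these neighbours are shown with that of Plaur because all 3 hold the letters TGANTCA, the form bound by AP-1 (Fos and Jun dimers), a motif that was picked after the sequences had been seen and that reads the same on both strands. Each runs 120 bases up to the transcript start in RefSeq (GRCm38.p6), 5′ to 3′, on the plus strand, with the motif in capitals. They lie at chr9:7445702-7445821 for Mmp3, chr9:7347254-7347373 for the second of 2 listed starts of Mmp12, and chr7:24462363-24462482 for Plaur.
Mmp3: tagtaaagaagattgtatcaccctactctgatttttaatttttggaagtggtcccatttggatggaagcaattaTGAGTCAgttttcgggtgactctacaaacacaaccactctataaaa
Mmp12: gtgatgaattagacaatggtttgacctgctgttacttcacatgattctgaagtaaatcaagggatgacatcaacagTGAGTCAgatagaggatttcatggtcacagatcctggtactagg
Plaur: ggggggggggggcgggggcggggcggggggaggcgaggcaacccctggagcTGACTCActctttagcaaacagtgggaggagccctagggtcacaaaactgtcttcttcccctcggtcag
The motif began 46 bases upstream of the Mmp3 start, 44 bases upstream of the second listed Mmp12 start and 69 bases upstream of the Plaur start. Promoter windows of 300 bases (250 before and 50 after the start) were at hand for 7 of the 9 genes. Of these 7, 3 held the motif, Mmp12 only at its second listed start, against 8.97% of 27025 genes. Since the motif was picked after the sequences had been seen, these shares describe the windows and test nothing. No match lay in the windows of Mmp14, Timp1, Timp2 or Timp3, or in that of the first listed Mmp12 start. A match of letters describes the window and does not show binding.

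Timp1, a secreted inhibitor induced in injury and fibrosis, was a fibroblast transcript: 98.2% of its 665 UMIs were in fibroblast-like cells, and the others fell in contractile (rate 0.644) and airway-led cells (0.0781). Its rate was 8.11 in Apod (7.36 to 8.92), 4.12 in Wif1 (3.51 to 4.80), 1.58 in Cd248 and 1.28 in Npnt fibroblast-like cells. A UMI was found in 55 of 74 Apod cells and in 21 of 61 Wif1 cells. The levels leaned on 2 cells, with 183 and 123 UMIs: without the top cell of each class, Apod fibroblast-like cells had 4.77 and Wif1 fibroblast-like cells 1.0. No Timp1 UMI was found in endothelial-like, macrophage-like, dendritic-like or T, B and plasma cells, so the fibroblast-like rate was at least 566-fold above endothelial-like and at least 237-fold above macrophage-like cells. Timp1 lies within Syn1 on the other strand (chrX:20870166-20874735, GRCm38), and whether counting used the strand is not given in the sources used here; Syn1 had 16 UMIs in all.

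Timp2, the inhibitor that binds both Mmp2 and Mmp14, had the broadest distribution, with a UMI in 1028 of 1344 cells. Its 7389 UMIs were split between fibroblast-like (27.8%), macrophage-like (20.6%) and endothelial-like cells (45.4%). The highest rates were 20.9 in Cd248 (19.1 to 22.9) and 17.8 in Apod fibroblast-like cells (16.6 to 18.9), then 14.96 in serous-cavity-macrophage-like cells (14.0 to 16.0), each apart from its neighbour. Wif1 fibroblast-like cells (11.4), aerocyte-like cells (11.3, interval 10.9 to 11.8), contractile cells (9.97), interstitial-macrophage-like cells (9.49), the third endothelial-like class (9.05) and Npnt fibroblast-like cells (8.98) followed without a gap between neighbours. Gja4 endothelial-like cells had 5.93 (5.49 to 6.39) and Mgl2 dendritic-like cells 2.79. T, B and plasma cells had 0.260, with a UMI in 13.7% of cells.

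Among macrophage-like classes, Timp2 was high in serous-cavity and interstitial cells and low in alveolar cells. All 49 serous-cavity-macrophage-like cells held it, and their rate was 1.58-fold that of interstitial-macrophage-like cells (1.42 to 1.75). Interstitial-macrophage-like cells were in turn 12.3-fold above alveolar-macrophage-like cells (7.64 to 21.3), whose rate was 0.770. Library 1 gave 9.86 and library 2 7.76 in interstitial-macrophage-like cells, and library 2 held 1 serous-cavity-macrophage-like and 2 alveolar-macrophage-like cells, too few to repeat these ratios. Timp2 overlaps Cep295nl on the same strand (chr11:118301069-118355740, GRCm38), and how reads shared between them were counted was not checked.

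Timp3, the inhibitor that stays bound to the matrix and also blocks ADAM proteases, was shared by fibroblast-like and endothelial-like cells, which held 49.2% and 44.2% of its 6119 UMIs. Its rate was 26.0 in Apod (24.6 to 27.4), 23.3 in Wif1 (21.8 to 24.8) and 21.2 in Npnt fibroblast-like cells (19.3 to 23.2), neighbours that overlapped, and 11.1 in Cd248 fibroblast-like cells (9.78 to 12.6). Cd248 fibroblast-like cells were therefore the highest class for Timp2 and the lowest fibroblast-like class for Timp3. Fibroblast-like cells as a whole had 22.0, which was 2.90-fold the 7.59 of endothelial-like cells (2.75 to 3.06) and 91.2-fold the 0.241 of macrophage-like cells. Library 1 gave 22.0 and the 4 cells of library 2 gave 21.5. Timp2 and Timp3 were found together in 178 of 187 fibroblast-like cells (95.2%) and in 352 of 415 aerocyte-like cells (84.8%). The products of their separate shares also give 95.2% and 84.8%. Timp3 lies within Syn3 on the other strand (chr10:86300372-86349506, GRCm38), which makes its assignment uncertain; Syn3 had 209 UMIs, at 0.621 in fibroblast-like and 0.306 in endothelial-like cells.

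Plau, which encodes urokinase, was the scarcest of the 9 genes, with 168 UMIs in 138 cells, and 72.6% of them lay in endothelial-like cells. The rate was 0.427 in aerocyte-like cells (0.344 to 0.524, 80 of 415 cells), 0.414 in interstitial-macrophage-like cells (0.280 to 0.591, 23 of 103 cells), 0.268 in Mgl2 dendritic-like cells (0.138 to 0.467) and 0.227 in Gja4 endothelial-like cells. No gap separated any neighbours in this order. The Mgl2 level rested on library 2, with 0.0992 in the 42 cells of library 1 and 1.77 in the 4 cells of library 2. Endothelial-like cells were 4.60-fold above all other cells (3.25 to 6.61) when pooled, but the excess was present in library 1 alone: 0.333 against 0.0475 in library 1, and 0.366 against 0.386 in library 2 (ratio 0.948, 0.535 to 1.74). Fibroblast-like cells held 2 UMIs in 1 cell, T, B and plasma cells held 1 UMI, and none was found in 49 serous-cavity-macrophage-like cells. Aerocyte-like cells had 0.429 in library 1 and 0.423 in library 2, while interstitial-macrophage-like cells had 0.319 in library 1 and 0.854 in library 2.

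Plaur, the urokinase receptor, was spread over endothelial-like and myeloid classes, with 73.0% of its 1138 UMIs in endothelial-like cells. Monocyte-like cells had a rate of 3.17 (2.21 to 4.41, 12 of 15 cells), aerocyte-like cells 3.03 (2.80 to 3.27, 286 of 415 cells), the third endothelial-like class 2.45 (1.91 to 3.10), serous-cavity-macrophage-like cells 2.14 (1.77 to 2.56) and alveolar-macrophage-like cells 1.77 (1.26 to 2.42), again with overlapping neighbours. Interstitial-macrophage-like cells, which carried Plau, had a Plaur rate of 0.290, and serous-cavity-macrophage-like cells, without Plau, were 7.37-fold above them (4.60 to 12.4). Fibroblast-like cells had 0.0585, near the 0.0727 of T, B and plasma cells. Mgl2 dendritic-like cells had 0.471 in library 1 and 6.65 in the 4 cells of library 2.

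Among endothelial-like cells, aerocyte-like cells exceeded Gja4 endothelial-like cells for Timp2, Timp3, Plau and Plaur, as the plot of endothelial-like classes by library shows. Aerocytes are the large alveolar capillary cells of gas exchange. The Gja4 class is a mixed one: all 6 listed markers of the general capillary were found in at least 25% of its cells, as were all 6 of aerocytes and 2 of 7 of larger vessels, and its leading genes included Gja4, Vwf, Edn1, Sema3g and Sox17 beside Plvap and Kit. Plaur was 3.0-fold higher in aerocyte-like cells (2.45 to 3.68), with 2.43 against 0.799 in library 1 and 4.06 against 1.98 in library 2. Timp2 was 1.91-fold higher (1.75 to 2.08), with 11.6 against 5.52 in library 1 and 10.9 against 7.81 in library 2. Timp3 gave 8.49 against 4.71 in library 1 and 9.77 against 7.47 in library 2. For Plau the ratio was 2.02 in library 1 (1.19 to 3.54) and 1.46 in library 2 (0.604 to 4.27), so library 2 alone did not separate the classes. Library 2 had higher Plaur than library 1 in both classes, and Plau and Plaur were detected together in 63 of 415 aerocyte-like cells (15.2%, against 13.3% from the product of their shares).

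**Figure D4:**
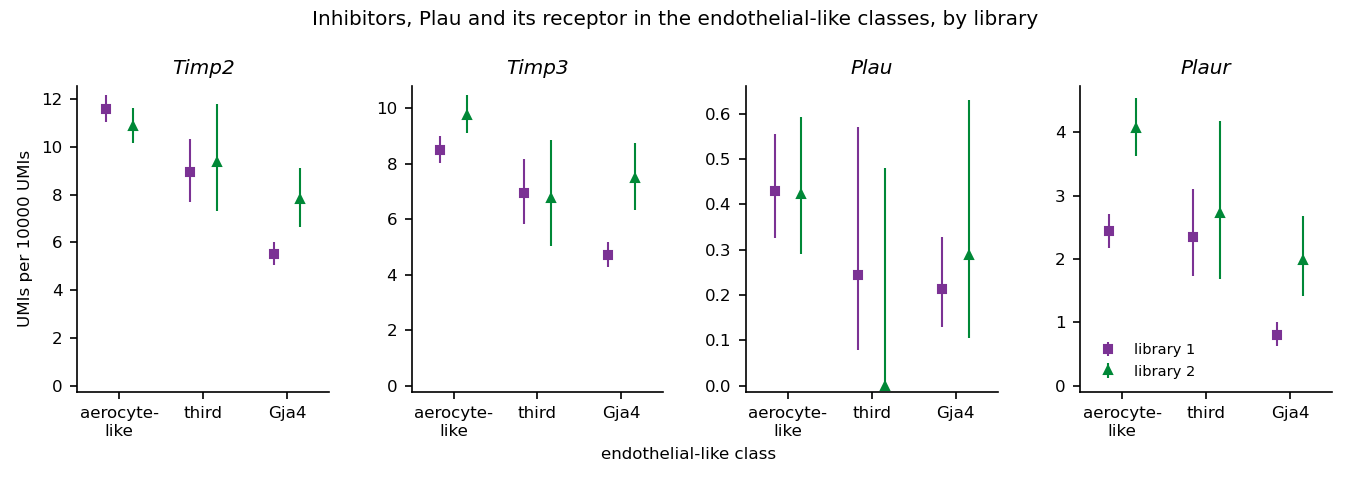
Rates (UMIs per 10000 UMIs, 95% Poisson intervals) of Timp2, Timp3, Plau and Plaur in the endothelial-like classes, drawn for each library. Aerocyte-like points lie above Gja4 endothelial-like points in both libraries for each gene, with overlapping intervals for Plau in library 2.

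Set together, the protease sources were past 2-fold above the remaining cells for all 4 metalloproteinases and also for 1 inhibitor, Timp1. In the sources against the remaining cells, Mmp2 had 1.99 against 0.0995 (20.0-fold, 15.4 to 26.3), Mmp3 1.30 against 0.00963, Mmp12 1.2 against 0.0016, Mmp14 0.736 against 0.0529 (13.9-fold) and Timp1 1.86 against 0.0193 (96.7-fold). These 5 of 9 genes passed 2-fold higher, a size that 17.3% of the 12702 genes found in at least 1% of cells also passed. The genes were chosen with earlier results of these data known, so their count beside that share describes the set and tests nothing. The single gene past 2-fold lower was Plaur, with 0.673 against 1.45 (ratio 0.465), a size that 17.2% of genes passed, and it did not pass 2-fold in either library alone (ratio 0.532 in library 1 and 0.630 in library 2). Timp2 had 10.6 against 5.90 (1.79-fold), Timp3 8.71 against 4.92 (1.77-fold) and Plau 0.128 against 0.197 (ratio 0.650). The set labelled as protease sources therefore also held 98.2% of Timp1, 50.2% of Timp2 and 49.9% of Timp3 UMIs.

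Timp2, Timp3 and Plau changed direction between libraries in this grouping. Timp2 had 11.1 in the sources against 5.19 in the remaining cells of library 1, and 5.27 against 8.75 in library 2. Timp3 had 9.35 against 4.2 in library 1 and 2.24 against 7.80 in library 2. Plau had 0.0814 against 0.168 in library 1 and 0.607 against 0.313 in library 2. Library 2 held 29 source cells, of which 4 were fibroblast-like, so its mix of classes differed from that of library 1. Plaur was lower in the sources in both libraries, at 0.545 against 1.02 in library 1 and 1.98 against 3.14 in library 2.

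**Figure D5:**
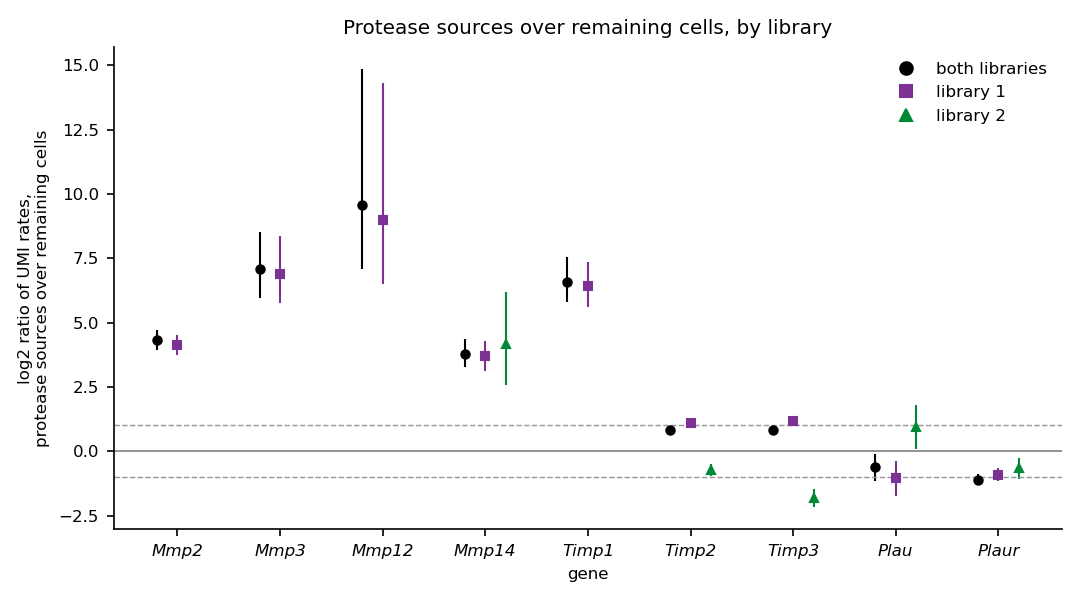
Ratio of the rate in protease sources to that in the remaining cells (log scale, 95% intervals) for each gene, pooled and per library. Library 2 points are left out for Mmp2, Mmp3, Mmp12 and Timp1, where its remaining cells had 0 UMIs; Timp2, Timp3 and Plau lie on opposite sides of 1 in the separate libraries.

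By lineage, fibroblast-like cells against all others had 6 of the 9 genes past 2-fold higher (Mmp2, Mmp3, Mmp14 and the 3 inhibitors; 15.3% of genes tested were) and 3 past 2-fold lower (Mmp12, Plau and Plaur; 23.9%). Endothelial-like cells had 2 higher (Plau and Plaur), a share near that of all genes (25.9%), and Plau was not higher in library 2. They had 5 lower (the 4 metalloproteinases and Timp1; 23.3%). Dendritic-like cells, which include the mixed Mgl2 class, had 1 higher, Mmp12 (8.2% of genes), and 5 lower (43.8%). Macrophage-like cells as a whole, counted without the mixed Mgl2 class, had 0 higher (11.1% of genes) and 6 lower (28.9%). Over the 19 separate classes, each set against all other cells, 28 of 171 pairs of class and member were past 2-fold higher (11.5% of all pairs of class and gene) and 115 past 2-fold lower (39.4%).

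The wider protease system was read from 7 lists of 84 genes, of which 71 were in the matrix and 62 passed the filter. In the protease sources 35 of the 62 were past 2-fold higher and 11 past 2-fold lower, against 17.3% and 17.2% of all genes tested, which is also the background of the list counts that follow. The lists too were chosen with earlier results of these data known, so the counts are descriptive. The list of serine and cysteine matrix proteases had 7 of 9 higher and 0 lower, with a median log2 ratio of 2.62, against -0.10 over all genes tested. Activators and regulators of metalloproteinases had 5 of 7 higher and 0 lower (median 1.11), and ADAM and ADAMTS proteases 8 of 18 higher and 2 lower (median 0.60). The other matrix metalloproteinases had 4 of 6 higher and 2 lower (median 1.23), and the plasminogen system 4 of 7 higher and 1 lower (median 0.98). Inhibitors of serine and cysteine proteases had 6 of 14 higher and 6 lower (median 0.01), and of the further inhibitors of metalloproteinases only Reck passed the filter, and it was higher. Fibroblast-like cells had 31 of 62 higher and 17 lower, against 15.3% and 23.9% of all genes. Macrophage-like cells had 13 higher and 37 lower (11.1% and 28.9% of all genes). Dendritic-like cells had 6 higher, near the 8.2% of all genes, and 44 lower (43.8%). Endothelial-like cells had 10 higher, a smaller share than the 25.9% of all genes, and 35 lower (23.3%).

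Each macrophage-like class had leading genes of its own in these lists. Interstitial-macrophage-like cells had Mmp9, or gelatinase B, at 3.85 (3.41 to 4.33, 45 of 103 cells) against 0.0233 in all other cells, and the lysosomal protease Ctsb at 34.2 against 3.91. Serous-cavity-macrophage-like cells had Serpinb2, an inhibitor of urokinase, at 11.7 (46 of 49 cells) against 0.0109, Prtn3, a serine protease of myeloid granules, at 4.73 against 0.025, and Thbs1, a matrix protein that binds metalloproteinases, at 20.0 against 0.577. Alveolar-macrophage-like cells had the collagen-degrading cathepsin Ctsk at 2.90 against 0.152 and the elastase inhibitor Slpi at 25.05 against 1.32.

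Dendritic-like and fibroblast-like classes also differed in these wider genes. Mgl2 dendritic-like cells had Furin, a convertase that activates membrane-type metalloproteinases, at 4.30 against 0.659 in all other cells, and the elastin-degrading cathepsin Ctss at 19.6 against 3.53. Flt3 dendritic-like cells had the cathepsin inhibitor Cst3 at 325 against 25.4. Apod fibroblast-like cells had Adamts2, which trims procollagen, at 4.10 against 0.252. In Wif1 fibroblast-like cells Adamts8 had 1.40 against 0.0439, and Serpine2, an inhibitor of urokinase and thrombin, had 6.10 against 0.225 but 1.26 without its top cell. Cd248 fibroblast-like cells had the aggrecanase Adamts5 at 5.63 against 0.121 and the convertase Pcsk6 at 1.94 against 0.0420. Fibroblast-like cells as a whole had Serping1, the C1 inhibitor, at 26.0 against 0.253 and Htra3, a serine protease, at 3.01 against 0.0442.

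Endothelial-like classes carried other members of the plasmin and metalloproteinase systems. Aerocyte-like cells had Thbd, the thrombin-binding anticoagulant receptor thrombomodulin, at 14.2 (13.7 to 14.8) against 2.91 in all other cells, and Tfpi, which inhibits the start of clotting, at 0.732 against 0.259. Gja4 endothelial-like cells had Adamts1 at 1.58 against 0.265 and the membrane-type metalloproteinase Mmp15 at 0.663 (0.522 to 0.830) against 0.119. Endothelial-like cells together had Mmp15 at 0.424 against 0.0437, the reverse of Mmp14.

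Over the 19 class rates, on a log2 scale with 0.1 added, the genes most like each member among 9358 were found by Pearson correlation. These values describe points that share the same libraries and include several classes at or near 0. Mmp2 was nearest to the collagen VI genes Col6a2 (0.99) and Col6a1 (0.99), Mmp3 to Slit3 (0.97), Mmp14 to Gsn (0.93), Timp1 to Abca8a (0.98), Timp2 to Hsbp1 (0.92) and Timp3 to Npdc1 (0.98). Plau was nearest to Trpv4 (0.84) and Plaur to Scarb1 (0.85). Mmp12 had no close match, with Fcrls highest at 0.66 and Mgl2 next at 0.64.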

How the data were processed

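Single cells were measured with 10x Genomics 3' chemistry, per the labels' protocols, and processed with Cell Ranger 3.0.2 against mm10, per the submitters' processing notes. The deposited unit is the natural log of 1 plus UMIs per 10000 of the cell's total, a scaling by the authors that is read from the values. Whole UMIs were recovered (largest deviation 1.78e-10). Depth was 2517 to 49467 UMIs per cell (medians 5631 in library 1 and 6716 in library 2), and 0 barcodes were shared by the libraries.

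Clustering used scanpy 1.11.5 with 2000 variable genes, 20 components, 15 neighbours and Leiden resolution 0.5 (igraph 0.11.9), which gave 13 clusters. Clusters that mixed lineages were clustered again after the data had been seen, giving 19 classes, named from 27 marker lists. With markers of 2 or more lineages, 30 cells were kept. Rates carry exact Poisson intervals, shares exact binomial intervals (95%) and ratios exact conditional intervals. Past 2-fold is a size, not a test. Named are all 9 members, genes from the 3 highest ratios of the wider lists in each class, and the nearest genes by correlation. The intervals and 2-fold calls were tested on simulated Poisson counts. That simulation had no clustering and no variation between cells beyond counting, so it does not cover the naming of classes or genes held by few cells. The members and lists were chosen with earlier results of these data known. Alternatives were other clusterings, filters, weightings and each library alone.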

Additional observations from a re-analysis of the deposited data

How the results depend on the processing

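The 5 genes past 2-fold higher in protease sources than in remaining cells became 0 when differences of mean natural-log values past ln 2 were counted, and ranged from 4 (without library 1) to 7 (without library 2, which added Timp2 and Timp3). Weighting all classes equally gave 7. The 1 gene past 2-fold lower became 2 at Leiden resolution 1.0 and with the first clustering only (Plau with Plaur), and 0 with equal class weights, with 1 added to both rates, with mean natural-log values and with contractile and monocyte-like cells among the sources; leaving out each library in turn gave 1, Timp3 without library 1 and Plau without library 2. Of 171 pairs of class and gene, 28 were past 2-fold higher and 115 past 2-fold lower than in all other cells. The 28 became 18 at Leiden resolution 1.0, and leaving out a library gave 3 to 27 higher and 7 to 94 lower, since without library 1 few classes kept enough cells. The leading class was the main one for the 1 gene that could be compared without library 1, and for each of the 8 compared without library 2. For the other genes the main leading class kept too few cells to compare. Class rates fell inside the pooled interval for 108 of 126 pairs at Leiden resolution 1.0, and for 9 of 18 (without library 1) to 134 of 144 pairs (without library 2). With 30 components, Mgl2 dendritic-like cells joined interstitial-macrophage-like cells, which then led for Mmp12. The pooled log2 ratio of sources to remaining cells kept its sign in 123 of 128 values. Without library 1 it was -0.73 for Timp2, -1.80 for Timp3 and 0.95 for Plau. The scarce counts of Mmp3, Mmp12 and Plau limit what can be said of their order. No paired analysis was possible because all cells belong to 1 group. Some of these alternatives were chosen after seeing the data.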

Other observations

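Aerocyte-like endothelial cells were also divided by Cdkn2a, the gene whose p16 transcript the reporter follows, into 254 cells with a Cdkn2a UMI and 161 cells without one, with median depths of 5238.5 and 4560 UMIs. A UMI of Cdkn2a is found more readily in a deeper cell, so the division follows depth in part. Timp3 had a rate of 9.6 per 10000 UMIs in cells with Cdkn2a and 7.81 in cells without (ratio 1.23, 95% counting interval 1.11 to 1.36). Its ratio was 1.1 in library 1, with an interval that included 1 (0.981 to 1.24). In library 2 it was 1.52 (1.23 to 1.89), with 26 cells without Cdkn2a. Plaur had 3.19 in cells with Cdkn2a and 2.74 in cells without (1.16, 0.985 to 1.38), and its direction differed between libraries, at 2.27 against 2.63 in library 1 and 4.27 against 3.17 in library 2. Timp2 had 11.5 and 11.1 (ratio 1.0). Plau had 0.45 and 0.384, with an interval of the ratio from 0.744 to 1.89.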
